A study of Mus musculus with 5 samples.

Results

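The genes described are the mouse C-type lectin genes with a Clec symbol, a number and a letter, which encode glycan-binding and related receptors. They were chosen as every gene of the authors' normalized table whose symbol is Clec, a number, a letter and at most a further number. The rule found 27 of the 27526 genes in that table, and it used no expression value. A further 6 genes with such symbols (Clec2e, Clec2h, Clec2j, Clec4f, Clec4g and Clec14a) are outside that table and had 0 counts in each of the 5 libraries. The label receptors holds for most members and not for all: Clec11a, Clec3a, Clec3b and Clec18a encode secreted proteins, and Clec16a encodes an intracellular protein of endosomes and mitophagy.

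The RNA came, per the labels, from Kit-positive leukaemia stem cells of a mouse model driven by AML1-ETO9a, a shortened form of the RUNX1-RUNX1T1 fusion of human acute myeloid leukaemia. All 5 libraries carry that oncogene by their labels. In the wild-type group (replicates 1 and 3) Plcg1, the gene of phospholipase C-gamma 1, is labelled +/+, and in the deleted group (replicates 2, 4 and 6) it is labelled -/- after conditional deletion. The sources used here name no Cre driver, no ages and no number of animals per library, and the 5 samples may differ for technical reasons alone: a p-value here speaks only of their spread.

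C-type lectin receptors are calcium-dependent or calcium-independent sensors on myeloid cells that bind sugars of fungi and mycobacteria or ligands of dying and neighbouring cells. Activating members signal through the kinase Syk, either with a tyrosine motif of their own tail or through the adaptors FcRγ (Fcer1g) and DAP12 (Tyrobp), and Syk engages Card9, Bcl10 and Malt1 as well as phospholipase C-gamma enzymes. Inhibitory members carry a tyrosine motif that recruits the phosphatases encoded by Ptpn6 and Ptpn11. Most of the genes lie in a pair of clusters on mouse chromosome 6, named after Dectin-1 (Clec7a) and Dectin-2 (Clec4n).

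Plcg1 itself did not separate the labelled groups: it was at 22.1 and 34.0 CPM for the wild-type pair against 53.0, 26.9 and 37.1 CPM for deleted 2, 4 and 6 (CPM is the count scaled to a common library size, with edgeR's TMM factors). The wild-type pair is given in the order of replicates 1 and 3 throughout. Counts per gene include exons outside a deleted part, so they do not check the deletion, and the groups are called by their labels. Deleted 6 stood apart from the other deleted libraries in genes outside the family too. By the lane labels of the deposited counts, wild-type 3, deleted 2 and deleted 4 shared lane 4. Wild-type 1 and deleted 6 each came from a separate lane, so deleted 6 and its lane cannot be told apart. Kit, the gene of the sorting marker, had 26.8 and 32.1 CPM for the wild-type pair against 672, 304 and 3.08 CPM for deleted 2, 4 and 6. Runx1t1, the mouse counterpart of the ETO part of the fusion, was at 0.121 and 0.234 CPM for the wild-type pair against 106, 74.0 and 13.5 CPM for deleted 2, 4 and 6. The calls and the fold changes of the main members are therefore given with and without deleted 6. Both wild-type libraries thus had almost no Runx1t1 reads and little Kit, although they are labelled as Kit-positive cells with the fusion. Whether reads of the fusion count towards this gene was not tested, so each contrast here compares libraries by their labels. Gene counts per library ran from 37306507 to 57133771.

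Transcripts of the family were more abundant, in sum, in the libraries labelled deleted, and their make-up differed from that of the wild-type libraries. Summed over the 27 genes, the level was 1547 and 1391 CPM for the wild-type pair against 1708, 2372 and 5212 CPM for deleted 2, 4 and 6. All 3 deleted libraries exceeded the wild-type pair, with deleted 6 far above the rest. Bulk RNA cannot tell more cells of a type from more RNA per cell, which holds for every level given here. Across all 5 libraries edgeR's quasi-likelihood test called 0 of the 23 members that passed the filter on low counts, as it called 0% of all 16120 genes tested in either direction. The members' adjusted p ran from 0.133 to 0.899. An unadjusted p under 0.05 was reached by 9 members in the higher and 4 in the lower direction, against 9.44% and 5.42% of all genes tested. DESeq2 called 5 higher and 4 lower (4.59% and 2.17% of its genes), while limma-voom, run with quality weights, called 7 and 4 (7.63% and 5.87%). With edgeR and no filter on low counts, 0 members were called higher and 3 lower (0.539% and 0.38% of genes), and in lane 4 alone 1 each way (1.26% and 0.779%). Deleted 6 was the highest library for 13 tested members (56.5%) and the lowest for 6 (26.1%), beside 36.2% and 37.9% of all genes.

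Without deleted 6, edgeR called 7 of 21 tested members higher and 4 lower, where it called 7.89% and 5.07% of all genes. Those higher were Clec7a, Clec4d, Clec4e, Clec5a, Clec4a3, Clec4b2 and Clec10a, and those lower were Clec12a and Clec11a, and also Clec2f and Clec18a, which entered the test through their wild-type level alone. The median log2 fold change over tested members, deleted minus wild-type, was 1.19 with all 5 libraries and 1.116 without deleted 6, beside 0.01 and -0.01 over all genes tested. All 3 deleted libraries exceeded the wild-type pair in 12 of the 27 genes and lay under it in 7, and the groups overlapped in 8. Those 7 include Clec2g and Clec3a, which were too low to test. Of the 23 tested members, 12 were above (52.2%) and 5 below (21.7%). Over all genes tested the groups did not overlap in 22.4% (above) and 23.7% (below), and deleted 2 and 4 lay above both wild-type libraries in 28.7% and below both in 29.8%. These counts are descriptions and support nothing on their own, because 3 tested members (Clec1a, Clec4a4 and Clec9a) reached the filter level of 0.190 CPM only in deleted libraries and 2 (Clec2f and Clec18a) only in wild-type libraries.

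**Figure D1:**
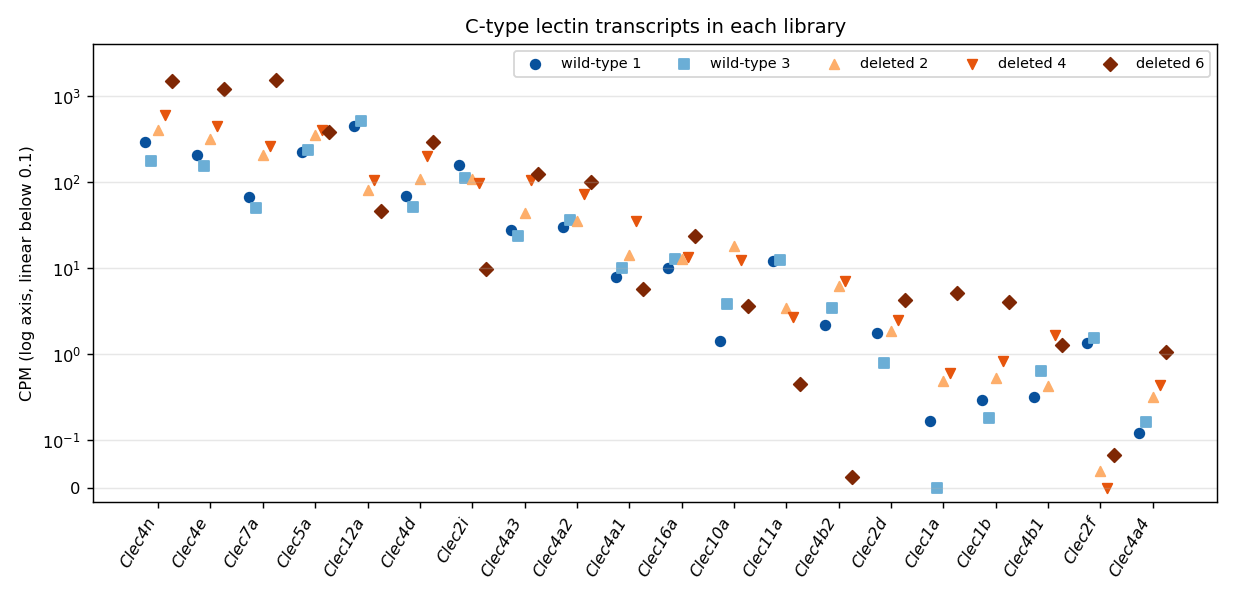
CPM of the 20 members with at least 1 CPM in a library (log axis, linear below 0.1), 1 point per library, ordered by mean level. Clec7a, Clec4n and Clec4e were highest in deleted 6, at 1514, 1498 and 1205 CPM, while Clec12a was highest in wild-type 3, at 511 CPM.

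Receptors that signal through an ITAM adaptor made up 63.6% and 56.3% of the family's summed CPM per kb of exon in the wild-type pair, and 72.8%, 72.4% and 68.4% in deleted 2, 4 and 6. Of the 6, edgeR called 0 with all 5 libraries. Without deleted 6 it called 4 higher and 0 lower, beside 7.89% and 5.07% of all genes. Clec4n encodes Dectin-2, which binds fungal mannans and pairs with FcRγ, and lies at chr6:123229843-123247021 (GENCODE M21, GRCm38, the build of mm10). It was at 294 and 175 CPM for the wild-type pair against 406, 604 and 1498 CPM for deleted 2, 4 and 6. The groups did not overlap, and the highest level was in deleted 6. Averages were 235 ± 84.2 CPM (SD, n = 2) under the wild-type label and 836 ± 582 CPM (SD, n = 3) under the deleted label. The fitted log2 difference was 1.83 ± 0.67 (SE; edgeR adjusted p = 0.316), which became 1.116 ± 0.29 once deleted 6 was left out (adjusted p = 0.0551), so it passed in neither edgeR fit. It passed in limma-voom (adjusted p = 0.0386) and not in DESeq2 (adjusted p = 0.0895).

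Clec4e encodes Mincle and Clec4d encodes MCL, receptors for mycobacterial cord factor that associate with each other and with FcRγ. They are neighbours on opposite strands 6.52 kb apart. Clec4e was at 204 and 151 CPM for the wild-type pair against 316, 442 and 1205 CPM for deleted 2, 4 and 6. For Clec4d the values were 68.9 and 51.1 CPM for the wild-type pair against 109, 200.03 and 289 CPM for deleted 2, 4 and 6. In both genes the libraries kept the same order, from wild-type 3 as the lowest through wild-type 1, deleted 2 and deleted 4 to deleted 6. Neither passed with all 5 libraries, at 1.88 ± 0.67 for Clec4e and 1.73 ± 0.47 for Clec4d (log2, SE; edgeR adjusted p = 0.310 and 0.244). Without deleted 6, Clec4e rose by 1.11 ± 0.22 and Clec4d by 1.38 ± 0.30 on the log2 scale (edgeR adjusted p = 0.0240 and 0.0311).

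Clec5a encodes MDL-1, which signals through DAP12 and had a narrow spread within each label. Its level was 220 and 235 CPM for the wild-type pair against 347, 405 and 377 CPM for deleted 2, 4 and 6. All 3 deleted libraries lay above both wild-type libraries and close to each other, and deleted 6 did not stand apart. Averages were 228 ± 10.2 CPM (SD, n = 2) for wild-type and 376 ± 29.2 CPM (SD, n = 3). The difference was 0.72 ± 0.19 (log2, SE; edgeR adjusted p = 0.238) with all libraries and 0.74 ± 0.15 (adjusted p = 0.0229) without deleted 6.

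The DCAR receptors Clec4b1 and Clec4b2, which also couple to FcRγ, were rare and differed from each other in deleted 6. Clec4b1 stood at 0.313 and 0.630 CPM for the wild-type pair against 0.420, 1.64 and 1.27 CPM for deleted 2, 4 and 6, and the groups overlapped (edgeR adjusted p = 0.468, and 0.384 without deleted 6). Clec4b2 had 90 and 189 counts (2.17 and 3.40 CPM) in wild-type, 355 and 377 counts (6.22 and 7.12 CPM) in deleted 2 and 4, and 1 count in deleted 6. It rose by 1.27 ± 0.32 on the log2 scale without deleted 6 (edgeR adjusted p = 0.0473), while its value of 0.68 ± 1.64 over all 5 libraries had an adjusted p of 0.835. Clec4b2 thus sat at opposite ends of the range in deleted 4 and deleted 6. Both genes have relatives in the cluster, as the Clec4a genes do, and reads that aligned to several places were not counted. How many such reads each of these genes lost was not tested, so their counts are uncertain.

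The 3 receptors with an activating tyrosine motif of their own had every deleted library above both wild-type libraries, with deleted 6 the highest. Of the 2 tested without deleted 6, 1 passed. Over all genes tested, 22.4% lay above in this way and deleted 6 was the highest library in 36.2%. Without deleted 6, 7.89% of all genes were called higher. Clec9a reached the filter level only in deleted libraries, so its place in this count is a description. Clec7a encodes Dectin-1, the β-glucan receptor of myeloid cells, and lies at chr6:129461591-129472779. It was at 66.3 and 50.1 CPM for the wild-type pair against 205, 263 and 1514 CPM for deleted 2, 4 and 6. The deleted libraries were all above the wild-type ones, and deleted 6 was 5.76 times the next highest library. Without deleted 6, Clec7a rose by 2.02 ± 0.20 on the log2 scale (edgeR adjusted p = 0.00228). With all 5 libraries the value was larger and less precise, at 3.50 ± 1.10 (adjusted p = 0.285).

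Clec1b encodes CLEC-2, the podoplanin receptor of platelets, and Clec9a encodes DNGR-1, which senses actin of dead cells and marks cross-presenting dendritic cells. Clec1b stood at 0.289 and 0.180 CPM for the wild-type pair against 0.526, 0.831 and 4.05 CPM for deleted 2, 4 and 6. Clec9a stayed under 1 CPM throughout, with 1 and 3 counts in wild-type and 14, 7 and 42 counts in deleted 2, 4 and 6. Both were under 1 CPM outside deleted 6, and neither passed edgeR's test with all libraries (adjusted p = 0.329 and 0.311). Without deleted 6, Clec1b did not pass (adjusted p = 0.128) and Clec9a fell under the filter. Their annotated exons overlap on the same strand, so reads from the shared stretch cannot be assigned and both counts are uncertain. The 8 megakaryocyte and platelet markers summed to 67.1 and 48.0 CPM for the wild-type pair against 179, 309 and 239 CPM for deleted 2, 4 and 6. Most of that was the chemokine gene Pf4 (63.9, 42.9, 99.0, 283 and 238 CPM in the same order), while the platelet receptor gene Gp6 did not exceed 0.0241 CPM. Among genes of the dendritic cells that Clec9a marks, Xcr1 had every deleted library below both wild-type libraries (0.181 to 0.675 CPM in all). The transcription factor gene Batf3 had every one above (0.0482 to 1.04 CPM). In the conventional dendritic cell list that holds both, 6 of the 9 tested genes were above and 1 was below, beside 22.4% and 23.7% of all genes tested. The part of such cells in these levels was not tested.

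**Figure D2:**
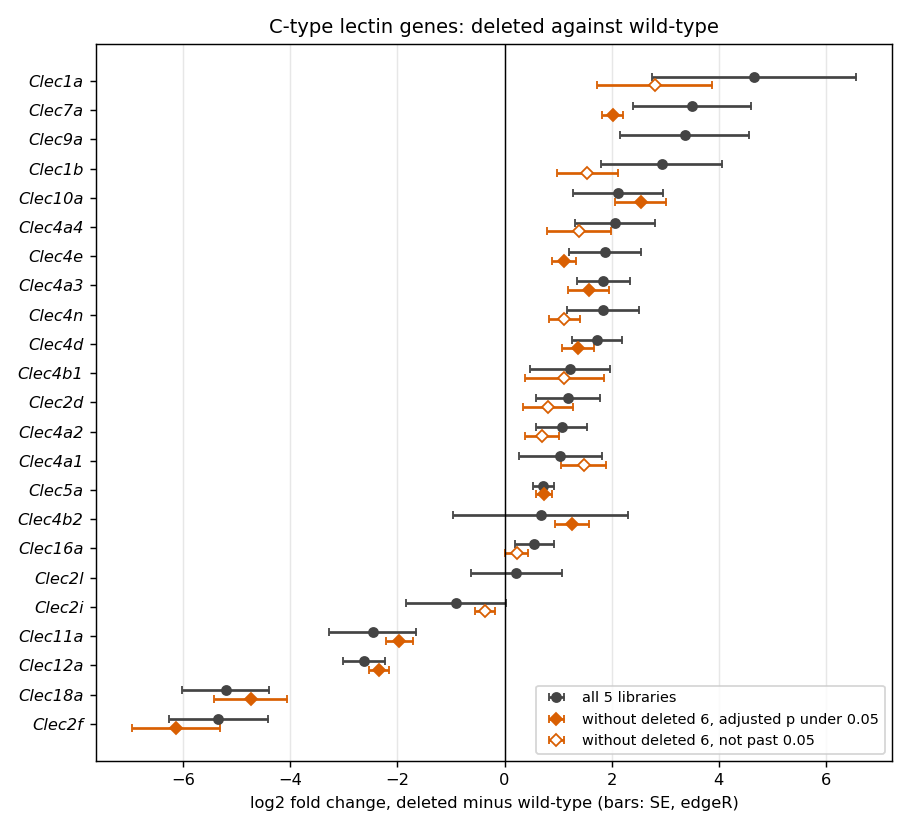
Log2 fold change, deleted minus wild-type, with SE bars from edgeR, for the 23 tested members with all 5 libraries (circles) and the 21 tested without deleted 6 (diamonds, filled where the adjusted p was under 0.05). No member passed with all 5 libraries, and 11 passed without deleted 6, from -6.13 for Clec2f to 2.54 for Clec10a.

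Clec12a, abundant in the wild-type libraries, was lower in all 3 deleted libraries. It encodes MICL, an inhibitory receptor of granulocytes and monocytes whose human counterpart, CLEC12A or CLL-1, is used as a surface marker of acute myeloid leukaemia blasts and leukaemia stem cells. The gene lies at chr6:129342691-129365303, in the same cluster as Clec7a. It was at 440 and 511 CPM for the wild-type pair against 80.2, 106 and 45.3 CPM for deleted 2, 4 and 6. The groups were far apart, and here deleted 6 continued the direction of the other deleted libraries. Averages were 476 ± 49.8 CPM (SD, n = 2) for wild-type and 77.1 ± 30.3 CPM (SD, n = 3). With all 5 libraries the difference was -2.63 ± 0.39 (log2, SE; edgeR adjusted p = 0.133), the smallest adjusted p of any member together with Clec18a. Clec12a fell by 2.34 ± 0.19 on the log2 scale without deleted 6 (adjusted p = 0.00134) and also passed in edgeR without a filter on low counts (adjusted p = 0.0161), DESeq2 and limma-voom.

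The remaining inhibitory receptors and their relatives form the DCIR group, named after a dendritic cell receptor with a phosphatase-recruiting motif in Clec4a2 and Clec4a4. Clec4a3, a relative without that motif, was at 27.3 and 23.8 CPM for the wild-type pair against 44.0, 107 and 124 CPM for deleted 2, 4 and 6, and the groups did not overlap. It rose by 1.57 ± 0.38 on the log2 scale without deleted 6 (edgeR adjusted p = 0.0446), with 1.84 ± 0.49 over all libraries (adjusted p = 0.241). Clec4a2 stood at 30.1 and 35.7 CPM for the wild-type pair against 34.7, 71.4 and 101 CPM for deleted 2, 4 and 6. Its groups overlapped, because deleted 2 lay between both wild-type libraries. Clec4a1, also without the motif, was at 7.88 and 9.96 CPM for the wild-type pair against 14.0, 35.3 and 5.77 CPM for deleted 2, 4 and 6. Clec4a1 was thus lowest in the library in which its neighbours Clec4a3 and Clec4a2 were highest. Clec4a4 was rare, at 0.121 and 0.162 CPM for the wild-type pair against 0.315, 0.434 and 1.06 CPM for deleted 2, 4 and 6, and Clec12b, another inhibitory member, had no more than 2 counts in any library. Clec4a1, Clec4a2 and Clec4a4 passed edgeR's test in neither fit.

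The members of the Dectin-2 cluster (chr6:122921848-123289870) and of the stretch around Dectin-1 (chr6:128887588-129472779) are given side by side as counts, with no test between them. Of the 9 genes of the Dectin-2 cluster, 5 had every deleted library above both wild-type libraries, none had every one below, and 4 overlapped. Of the 10 genes around Dectin-1, 5 were above, 4 were below and 1 overlapped, with Clec2g and Clec12b too low to test. Among all genes tested, 22.4% were above and 23.7% below. The 4 below were Clec2i, Clec2g, Clec2f and Clec12a, and the 5 above were Clec2d and the adjacent run Clec1b, Clec9a, Clec1a and Clec7a. Clec9a and Clec1a, like Clec4a4 in the Dectin-2 cluster, reached the filter level only in deleted libraries, and Clec2f only in wild-type libraries. Clec1b and Clec9a also share exon sequence, so these counts and this run are descriptions only. Clec12b, the overlapping one, lies between Clec12a and that run.

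**Figure D3:**
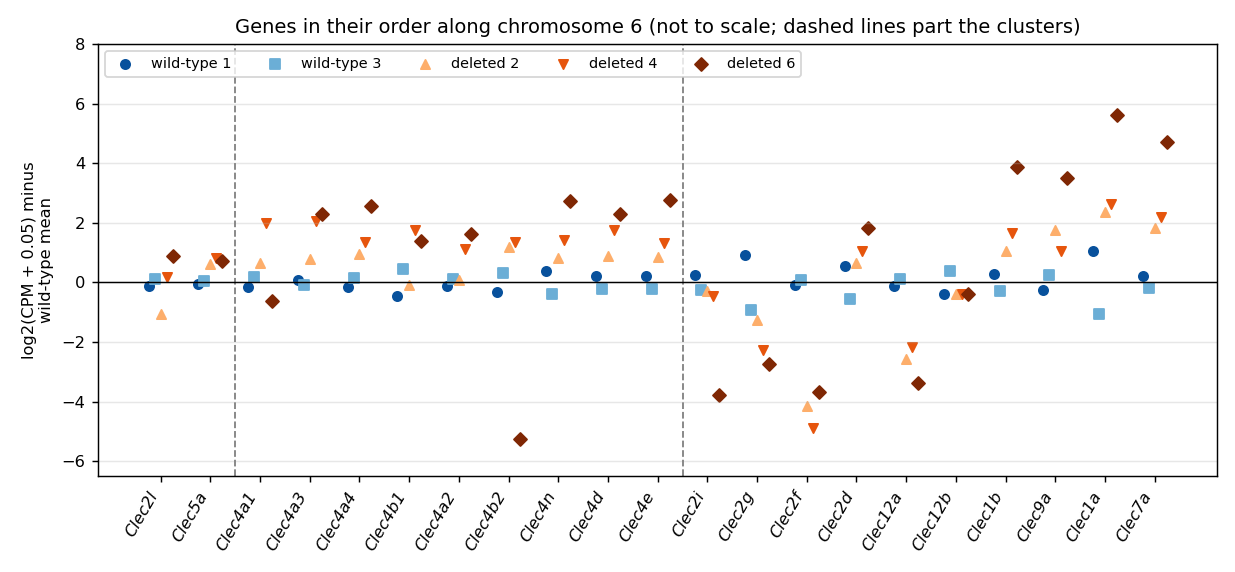
Log2(CPM + 0.05) minus the wild-type mean for the 21 members on chromosome 6, in their order along it and not to scale, 1 point per library. Points of the deleted libraries lie mostly above the line in the Dectin-2 cluster, and on both sides of it around Dectin-1.

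Upstream sequence is shown for the members on which these comparisons turn: the neighbours Clec4d and Clec4e, and Clec7a and Clec12a, which differed in direction within 1 cluster. Each run is the 250 bases before a start that RefSeq annotates (RefSeq, GRCm38.p6), written 5′ to 3′ on the strand of the gene, and 20 of the 27 members had such an entry; the Clec12a start lies within the longer GENCODE gene. Capitals mark the letters GAGGAA, a core of sites for the myeloid factor PU.1, and TGTGGT, a core of sites for RUNX1, on either strand, and the motifs do not overlap each other in these runs.
Clec4d (chr6:123261857-123262106, plus strand): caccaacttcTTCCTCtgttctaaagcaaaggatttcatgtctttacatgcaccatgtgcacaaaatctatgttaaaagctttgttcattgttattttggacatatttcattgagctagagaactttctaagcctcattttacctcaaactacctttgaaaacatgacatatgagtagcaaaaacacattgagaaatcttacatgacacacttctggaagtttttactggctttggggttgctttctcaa
Clec4e (chr6:123289872-123290121, minus strand): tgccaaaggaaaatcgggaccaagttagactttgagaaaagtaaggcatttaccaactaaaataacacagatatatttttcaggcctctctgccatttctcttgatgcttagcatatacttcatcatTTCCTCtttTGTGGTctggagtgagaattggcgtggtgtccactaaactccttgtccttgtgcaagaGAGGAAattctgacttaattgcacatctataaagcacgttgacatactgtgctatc
Clec7a (chr6:129472780-129473029, minus strand): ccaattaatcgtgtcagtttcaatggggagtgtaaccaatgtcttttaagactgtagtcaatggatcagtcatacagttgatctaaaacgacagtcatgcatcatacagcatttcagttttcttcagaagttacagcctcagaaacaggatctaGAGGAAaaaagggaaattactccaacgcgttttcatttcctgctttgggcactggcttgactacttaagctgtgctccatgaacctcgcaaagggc
Clec12a (chr6:129349994-129350243, plus strand): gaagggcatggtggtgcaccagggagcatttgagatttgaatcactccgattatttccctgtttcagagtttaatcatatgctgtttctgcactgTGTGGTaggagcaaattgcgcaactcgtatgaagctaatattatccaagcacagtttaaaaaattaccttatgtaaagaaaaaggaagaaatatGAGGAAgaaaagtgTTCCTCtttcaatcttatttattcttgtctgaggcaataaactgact
GAGGAA was present in all 4 runs, and TGTGGT in those of Clec4e and Clec12a. Of the 20 members with an entry, 13 held GAGGAA and 5 held TGTGGT in at least 1 of their annotated windows. Counted by window, 14 of their 23 windows held GAGGAA and 6 held TGTGGT, beside 23.3% and 14.0% of all 32851 windows of this length. A match is a description of letters, not evidence of a bound factor.

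Clec10a and Clec1a, listed together as endocytic receptors, followed different libraries. Clec10a encodes a galactose-type lectin of macrophages and dendritic cells and was at 1.40 and 3.80 CPM for the wild-type pair against 17.8, 12.5 and 3.62 CPM for deleted 2, 4 and 6. Deleted 2 and 4 were high, and deleted 6 lay within the wild-type range. Clec10a rose by 2.54 ± 0.47 on the log2 scale without deleted 6 (edgeR adjusted p = 0.0189), and had 2.12 ± 0.85 with all libraries (adjusted p = 0.339). Its close relative and neighbour Mgl2, outside the symbol rule, was also highest in deleted 2 and 4, at 11.7 and 21.4 CPM for the wild-type pair against 73.0, 72.7 and 21.7 CPM for deleted 2, 4 and 6. Clec1a, a receptor for fungal melanin, was at 0.169 and 0 CPM for the wild-type pair against 0.491, 0.604 and 5.13 CPM for deleted 2, 4 and 6. Clec1a was thus mainly a transcript of deleted 6, where it reached 8.50 times the next highest library, and it passed edgeR's test in neither fit (adjusted p = 0.344 and, without deleted 6, 0.146).

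Several of the Clec2 genes encode small lectins that are ligands of NKR-P1 receptors of natural killer cells. Clec2i, the most abundant, was at 156 and 112 CPM for the wild-type pair against 108, 97.0 and 9.70 CPM for deleted 2, 4 and 6. Deleted 2 and 4 lay just under wild-type 3, and only deleted 6 was far lower. The difference was -0.90 ± 0.93 with all libraries and -0.37 ± 0.18 without deleted 6 (log2, SE; edgeR adjusted p = 0.632 and 0.251). Klrb1f, which encodes a receptor for the Clec2i product and was picked after its values were seen, stood at 11.8 and 14.2 CPM for the wild-type pair against 5.97, 6.38 and 0.0226 CPM for deleted 2, 4 and 6. Natural killer cell markers were near absent, with Ncr1 and Klra8 at 0 counts in all 5 libraries.

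Clec2d, the ligand of an inhibitory NKR-P1 receptor, was at 1.74 and 0.793 CPM for the wild-type pair against 1.87, 2.49 and 4.30 CPM for deleted 2, 4 and 6, and passed in neither fit. Clec2f was detected almost only under the wild-type label, at 56 and 85 counts (1.35 and 1.53 CPM) against 2, 0 and 3 counts in deleted 2, 4 and 6. Pooled over libraries, its level was 44.9 times higher in wild-type (95% exact interval 18.8 to 140, which covers counting error only). It reached the filter level through the wild-type libraries alone, so its call without deleted 6 is no support for a difference. Clec2g had 24, 7, 5, 1 and 0 counts in wild-type 1 and 3 and deleted 2, 4 and 6 and was not tested, and Clec2l did not exceed 0.339 CPM.

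Among the secreted and intracellular members, Clec11a was lower under the deleted label. It encodes a growth factor of the bone marrow, known as stem cell growth factor or osteolectin. Its level was 12.0 and 12.2 CPM for the wild-type pair against 3.47, 2.68 and 0.452 CPM for deleted 2, 4 and 6. All 3 deleted libraries were well below the wild-type pair, which lay close together. Clec11a fell by 1.96 ± 0.25 on the log2 scale without deleted 6 (edgeR adjusted p = 0.00496), and stood at -2.46 ± 0.81 with all libraries (adjusted p = 0.289). Clec18a, a secreted lectin named after its values were seen, had 34 and 43 counts in wild-type against 1, 2 and 0 counts in deleted libraries. It too reached the filter level through the wild-type libraries alone, and its values are a description.

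Clec16a had similar values in the 4 libraries other than deleted 6, at 9.91 and 12.6 CPM for the wild-type pair against 12.8, 13.2 and 23.4 CPM for deleted 2, 4 and 6. It passed in neither fit. Clec3a and Clec3b had at most 6 counts in a library and were not tested.

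Levels can be compared between members only per length, and on that scale Clec4n led in every library. With CPM divided by the exon length of all annotated isoforms, the 27 genes summed to 552 and 445 CPM per kb in wild-type 1 and 3 and to 706, 1040 and 2306 CPM per kb in deleted 2, 4 and 6. Clec4n took 37.6% and 27.7% of that sum in wild-type and 40.5%, 40.9% and 45.7% in deleted 2, 4 and 6. Clec12a was second in both wild-type libraries, with 14.4% and 20.8%, and took 2.06%, 1.84% and 0.356% in deleted 2, 4 and 6. Clec7a went from 4.55% and 4.26% to 11.0%, 9.59% and 24.9%. The ratio of Clec7a to Clec12a per kb was 0.315 and 0.205 in wild-type and 5.34, 5.22 and 70.0 in deleted 2, 4 and 6, so the order of these 2 genes was reversed between the labels in every library. Clec5a held 10.4% and 13.7% in wild-type, 12.8% and 10.1% in deleted 2 and 4 and 4.25% in deleted 6.

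**Figure D4:**
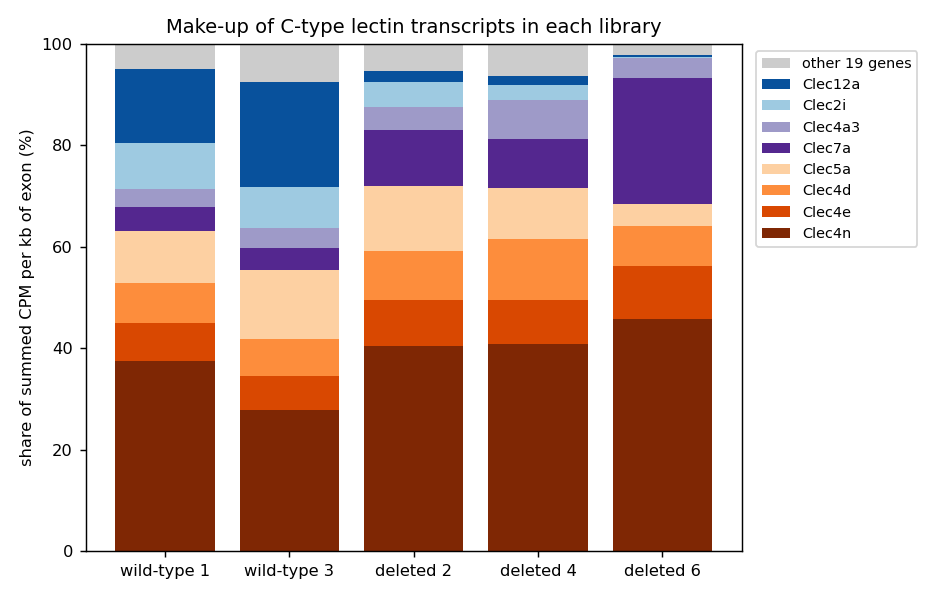
Share of each gene in the summed CPM per kb of exon of the 27 members, in percent, 1 bar per library. The dark blue share of Clec12a is 14.4% and 20.8% in the wild-type libraries and at most 2.06% in the deleted ones, while the purple share of Clec7a grows to 24.9% in deleted 6.

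The genes that carry the signal of these receptors were described from a list of adaptors, kinases, phosphatases and scaffolds. Of the 25 signalling partners listed, 24 were tested, and edgeR over all 5 libraries called 0 of them; unadjusted p-values under 0.05 numbered 3 higher and 0 lower, where all genes had 9.44% and 5.42%. DESeq2 called 2 higher and limma-voom 4 higher (4.59% and 7.63% of all genes), and neither called any lower. Without deleted 6, edgeR called 3 higher (Fyn, Cblb and Src) and 0 lower, beside 7.89% and 5.07% of all genes. The median log2 fold change was 0.32 with all libraries and 0.14 without deleted 6. Syk, the kinase on which the activating receptors converge, was at 218 and 258 CPM for the wild-type pair against 254, 318 and 667 CPM for deleted 2, 4 and 6. The adaptor Fcer1g stood at 525 and 415 CPM for the wild-type pair against 342, 552 and 970 CPM for deleted 2, 4 and 6. For Tyrobp the values were 679 and 545 CPM for the wild-type pair against 435, 731 and 1462 CPM for deleted 2, 4 and 6. In each of these 3 genes deleted 6 was the highest and the other 4 libraries overlapped between labels.

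Fyn, a Src-family kinase, had the smallest p of the list, at 8.63 and 12.1 CPM for the wild-type pair against 60.8, 76.8 and 106 CPM for deleted 2, 4 and 6. It had 2.97 ± 0.35 with all libraries (log2, SE; edgeR adjusted p = 0.123) and rose by 2.74 ± 0.22 without deleted 6 (adjusted p = 0.00137). Src was low throughout, at 0.820 and 1.26 CPM for the wild-type pair against 2.58, 3.79 and 20.8 CPM for deleted 2, 4 and 6. Cblb, a ubiquitin ligase that limits Syk signalling, was at 23.9 and 25.8 CPM for the wild-type pair against 45.1, 70.3 and 36.0 CPM for deleted 2, 4 and 6. On the side of lower values, Card9, the scaffold downstream of Syk, stood at 36.5 and 44.5 CPM for the wild-type pair against 31.0, 30.0 and 17.6 CPM for deleted 2, 4 and 6. Ptpn6, the phosphatase used by inhibitory receptors, was at 434 and 481 CPM for the wild-type pair against 348, 402 and 190 CPM for deleted 2, 4 and 6. Card9 and Ptpn6 had every deleted library below both wild-type libraries without passing (edgeR adjusted p = 0.393 and 0.489, and 0.162 and 0.289 without deleted 6). Hcst, another adaptor, ranged from 10.2 to 17.2 CPM, and its groups overlapped. Plcg2, the phospholipase C-gamma of myeloid cells, was at 330 and 389 CPM for the wild-type pair against 372, 352 and 235 CPM for deleted 2, 4 and 6, and its groups overlapped (edgeR adjusted p = 0.757, and 0.945 without deleted 6).

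**Figure D5:**
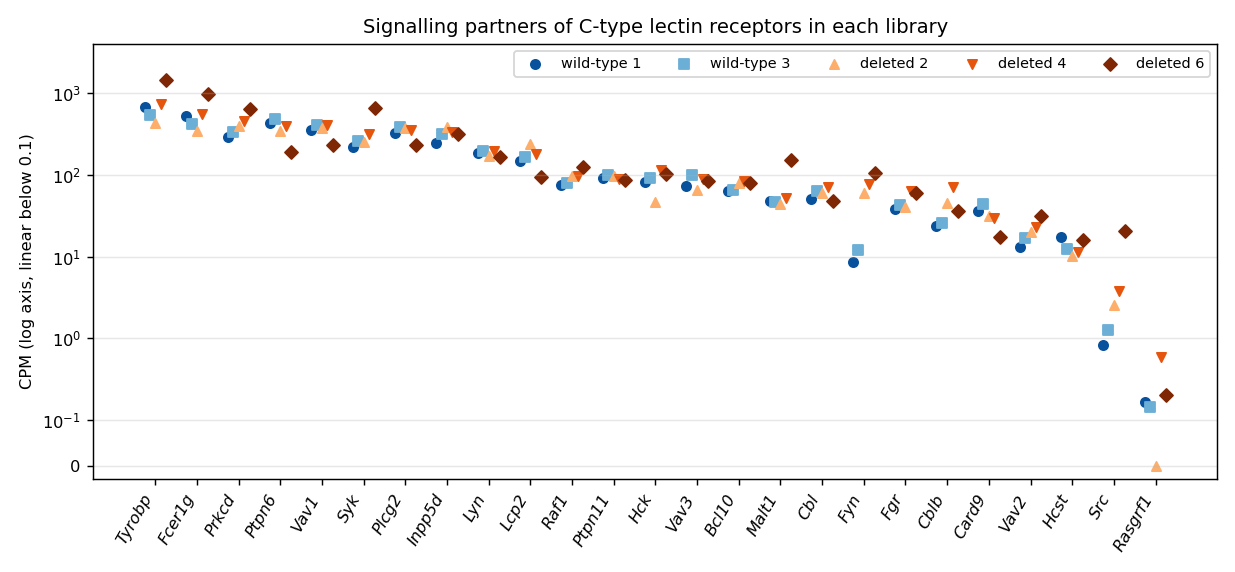
CPM of the 25 signalling partners (log axis, linear below 0.1), 1 point per library, ordered by mean level. Points of a gene lie close together for most of the list, and Fyn shows the deleted libraries at 60.8 to 106 CPM against 8.63 and 12.1 CPM in wild-type.

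Other genes with a C-type lectin fold, outside the symbol rule, were listed for comparison. Of 48 such genes with a row, 24 were tested, and edgeR over all 5 libraries called 0 of them; unadjusted p-values under 0.05 numbered 2 higher and 2 lower, where all genes had 9.44% and 5.42%. DESeq2 called 1 each way (4.59% and 2.17% of all genes), and limma-voom called 2 higher and 3 lower (7.63% and 5.87%). The median log2 fold change was -0.45, and -0.44 without deleted 6. Mrc1, the macrophage mannose receptor, was at 18.3 and 41.5 CPM for the wild-type pair against 211, 424 and 219 CPM for deleted 2, 4 and 6, and rose by 3.42 ± 0.48 on the log2 scale without deleted 6 (edgeR adjusted p = 0.00714). Klra17, a Ly49-related gene, stood at 1.69 and 2.38 CPM for the wild-type pair against 1.61, 2.96 and 8.21 CPM for deleted 2, 4 and 6. Klrk1, the activating receptor NKG2D, was at 1.08 and 3.30 CPM for the wild-type pair against 0.193, 0.113 and 0.158 CPM for deleted 2, 4 and 6. Olr1, a scavenger receptor for oxidised lipoprotein encoded beside Clec7a, stood at 64.6 and 69.6 CPM for the wild-type pair against 33.9, 42.0 and 18.1 CPM for deleted 2, 4 and 6. Colec12, a scavenger collectin, was at 30.0 and 46.2 CPM for the wild-type pair against 3.21, 4.79 and 26.9 CPM for deleted 2, 4 and 6. Without deleted 6, edgeR called Mrc1 and Mgl2 higher and 5 genes lower, among them Klrk1, Olr1 and Colec12, beside 7.89% and 5.07% of all genes.

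Markers of other cell types also differed between the libraries. The 10 genes of the conventional dendritic cell list, 9 or 10 of which had a count in each library, summed to 48.8 and 60.8 CPM for the wild-type pair against 294, 298 and 1905 CPM for deleted 2, 4 and 6. Itgax and H2-Ab1 led that sum in deleted 6, at 756 and 659 CPM, whereas Flt3 was at 0.181 CPM there and Cd209a had no count. Of the 9 tested, 6 had every deleted library above both wild-type libraries and 1 had every one below, beside 22.4% and 23.7% of all genes tested. Their median log2 fold change was 2.81. EdgeR without deleted 6 called 5 of them higher and 0 lower, beside 7.89% and 5.07% of all genes. The 12 macrophage markers summed to 1156 and 1368 CPM for the wild-type pair against 1201, 2529 and 3959 CPM for deleted 2, 4 and 6, with Timd4 at 0 in all libraries. Cd68, Csf1r and Adgre1 made up nearly all of that sum, at 2451, 727 and 731 CPM in deleted 6. Of the 10 tested, 4 had a positive and 6 a negative log2 fold change (median -0.26). The groups were separate for Adgre1, higher under the deleted label, and for Fcgr1 and Marco, lower there. Among all genes tested, 22.4% were higher in this way and 23.7% lower. Adgre1 was at 195 and 244 CPM for the wild-type pair against 362, 628 and 731 CPM for deleted 2, 4 and 6. Without deleted 6, edgeR called Adgre1 higher (adjusted p = 0.0368) and Marco lower, beside 7.89% and 5.07% of all genes. Marco reached the filter level of 0.190 CPM only in wild-type libraries, so its values are a description. The 9 mast cell and basophil markers summed to 70.3 and 121 CPM for the wild-type pair against 10612, 4833 and 33.7 CPM for deleted 2, 4 and 6. The 9 neutrophil markers summed to 7091 to 10865 CPM in the other 4 libraries and to 1383 CPM in deleted 6, of which the collagenase gene Mmp8 was 1278 CPM. S100a8 and S100a9 stood at 59.6 and 33.7 CPM there, against at least 2657 and 2500 CPM in each other library. Of the 9, Camp, Ngp and Ly6g had every deleted library below both wild-type libraries, and Mmp8 every one above. Over all genes tested, these shares were 23.7% and 22.4%. Ngp was at 1108 and 1720 CPM for the wild-type pair against 421, 622 and 5.77 CPM for deleted 2, 4 and 6. Camp was at 58.7 and 70.0 CPM against 8.11, 16.3 and 0.0678 CPM in that order. Without deleted 6, edgeR called 3 of the 9 lower and 0 higher, beside 5.07% and 7.89% of all genes. The part of these cells in the lectin levels was not tested.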

How the data were processed

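RNA of Kit-positive AML1-ETO9a leukaemia cells was made into cDNA libraries with SMART-Seq v4 and Nextera XT kits, per the labels' protocols. The submitters' processing notes list mm10, STAR, DESeq2 1.12.4 and bcl2fastq 1.8.4, with no roles. Annotation, strand setting and counting mode were not given in the sources used here. Deposited by the authors were whole-number read counts for 46603 genes per library, a normalized signal for 27526 genes, and log2 values whose transformation is not named and which entered no test. The deposited signal equals the counts divided by 1 factor per library: 100.0% of its values gave whole reads within 0.01, and edgeR on those reads, an alternative chosen after seeing the data, called 0 genes.

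Rows without a gene stayed out, namely reads aligned to several places (13.0% to 15.1% of a table), without a feature (5.89% to 8.09%), unaligned (2.48% to 4.13%) and ambiguous (2.36% to 2.78%). The counts were tested with edgeR 4.0.16 (R 4.3.3), using filterByExpr, TMM factors and the quasi-likelihood F test on genotype over all 5 libraries. Adjustment followed Benjamini and Hochberg over all 16120 genes tested, with calls under 0.05. The SE is the log2 fold change over the square root of F. DESeq2 1.42.0, limma-voom 3.58.1, other scalings and filters, lane 4 alone and each library left out were the alternatives. With 2 against 3 libraries, the smallest two-sided exact permutation p is 0.1, so none was used. No unmapped columns were present.

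The naming rule takes members with at least 1 CPM in a library. Values of rarer ones (Clec2g, Clec2l, Clec3a, Clec3b, Clec9a, Clec12b and Clec18a), of Klrb1f and of single marker genes were added after they were seen. From the other lists, 6 signalling partners (Syk, Fcer1g, Tyrobp, Card9, Ptpn6 and Plcg2) and the 3 genes of smallest p each way with that level are named. The members and lists were chosen with earlier results of these data known.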

Additional observations from a re-analysis of the deposited data

How the results depend on the processing

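With all 5 libraries edgeR called 0 lectin members under TMM, DESeq2 size factors, library size alone and the stricter filter, and the calls depended on the test and on deleted 6. Calls over all genes depended on them too. DESeq2 called 4.59% of its genes higher and 2.17% lower, and limma-voom 7.63% and 5.87%. The shares with edgeR were 7.89% and 5.07% without deleted 6, and 0.539% and 0.38% without a filter on low counts. Lectin members called higher and lower were 5 and 4 with DESeq2, 7 and 4 with limma-voom, 1 and 1 in lane 4 alone (Clec7a and Clec12a; 1 wild-type library, assumed to vary like the 2 deleted ones), and 0 and 3 when low counts were kept. Leaving out single libraries gave 0 to 7 higher and 0 to 4 lower, and in each case the upper end came without deleted 6. Signalling partners called higher numbered 2 with DESeq2, 4 with limma-voom, 1 in lane 4, 1 without a filter and 0 to 3 with libraries left out. Other lectin-fold genes called higher and lower were 1 and 1 with DESeq2, 2 and 3 with limma-voom, 1 and 2 in lane 4, 1 and 1 without a filter, and 0 to 2 and 0 to 5 with libraries left out.

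The members' median log2 fold change ran from 0.91 (library size alone, which moved the median of all genes from 0.01 to -0.19) to 1.41 (without deleted 2). None of the 20 named and tested members changed direction in any alternative that tested it. Without deleted 6, 10 of the 20 passed, where 7.89% of all genes were called higher and 5.07% lower. Values of under 10 counts in a library, as for Clec9a, Clec2f and Clec18a, limit those genes to large differences. No paired analysis was possible because the groups share no replicate number.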
